A study of Mus musculus with 8 samples.

Results

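The postsynaptic scaffold and adhesion genes are 32 mouse genes, chosen by symbol, whose proteins build the receiving side of excitatory and inhibitory synapses. All 32 were found by Ensembl identifier among the 56748 genes of the deposited count table, each in a single row, and all 32 passed the filter on low counts that left 21588 genes for testing. They were measured in forebrain RNA of TgCRND8 transgenic mice (Tg), which overexpress the amyloid precursor protein APP, and of their non-transgenic littermates (NTg), with 4 libraries of each genotype. All mice were 18 months old, no treatment is named, the tissue was a frozen, pulverised hemibrain, and all libraries carry the same batch label. TgCRND8 carries a human APP transgene under the hamster prion promoter, which is active in many neurons and in other cells, and plaques form early in this line, so 18 months is a late stage. Replicates are numbered, and the labels do not state that they came from different mice. Every pair of libraries of the same genotype differed far beyond counting noise (chi-square per degree of freedom of 10.9 to 48.8), so none was the same library deposited again, and p-values measure the spread between these libraries.

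Excitatory synapses sit on dendritic spines and carry a dense protein plate under the membrane, the postsynaptic density. In it, the Dlg proteins (PSD-95 and its relatives) hold glutamate receptors and adhesion molecules, the Dlgap proteins link them to the Shank proteins, and the Homer proteins tie Shank to metabotropic glutamate receptors and calcium stores. Calcium entering through NMDA receptors activates the kinase CaMKII, and neuroligins and Lrrtm proteins reach across the cleft to presynaptic neurexins. Loss of spines and of these proteins is a recognised feature of amyloid mouse models, and mRNA in bulk tissue reports on neither the number of synapses nor the amount of protein.

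Promoter sequences are shown for the 3 members whose level varied most between the libraries (Homer3, Homer1 and Nrgn). Lrrtm1, the member with the smallest p between genotypes, is shown as well. Each sequence is the 150 bases before an annotated transcript start, from RefSeq on GRCm38.p6, an older build than that of the counts. The sequences are written 5′ to 3′ on the gene's strand, with the cAMP response element half-site TGACG in capitals (CGTCA where it lies on the opposite strand). The positions are chr13:93303607-93303756, plus strand, for the first Homer1 start, chr13:93307884-93308033, plus strand, for the second, chr8:70282849-70282998, plus strand, for Homer3, chr9:37552746-37552895, minus strand, for Nrgn, and chr6:77242327-77242476, plus strand, for Lrrtm1.
Homer1 first start: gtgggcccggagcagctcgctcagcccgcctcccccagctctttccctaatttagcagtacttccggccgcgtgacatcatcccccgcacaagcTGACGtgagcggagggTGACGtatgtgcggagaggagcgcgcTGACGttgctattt
Homer1 second start: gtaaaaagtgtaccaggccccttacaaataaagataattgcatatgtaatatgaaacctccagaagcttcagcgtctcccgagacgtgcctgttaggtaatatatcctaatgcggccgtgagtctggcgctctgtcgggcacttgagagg
Homer3: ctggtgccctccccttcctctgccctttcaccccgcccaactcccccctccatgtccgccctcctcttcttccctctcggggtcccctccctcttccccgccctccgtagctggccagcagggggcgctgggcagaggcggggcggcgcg
Nrgn: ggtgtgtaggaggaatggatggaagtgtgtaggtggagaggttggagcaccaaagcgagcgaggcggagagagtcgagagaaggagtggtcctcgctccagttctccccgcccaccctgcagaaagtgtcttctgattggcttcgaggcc
Lrrtm1: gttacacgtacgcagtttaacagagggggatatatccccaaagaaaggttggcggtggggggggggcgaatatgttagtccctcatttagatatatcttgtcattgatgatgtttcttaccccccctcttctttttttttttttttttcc
The window before the first Homer1 start held 3 copies of TGACG, and the other 4 windows held 0. Homer1 is an activity-induced gene in neurons, whose short product is made after strong stimulation. Promoter windows were found for 26 of the 32 members (42 starts); Dlgap2, Shank1, Shank2, Camk2a, Nlgn3 and Lrrtm2 had no entry. Over the 250 bases before each start and on both strands, TGACG was present in 4 of the 42 windows (9.52%), against 17.8% of all 32851 promoter windows. The full element TGACGTCA, which contains TGACG, was in 0 of the 42, against 1.55% of all. The GC box GGGCGG was in 38.1% of the windows of the members against 32.7% of all, the E-box CAGCTG in 23.8% against 13.0%, and TATAAA in 11.9% against 12.4%. These matches describe letters, not binding.

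The members were well covered. Each library held 57129090 to 65242741 counts, and the least covered member, Pick1, had at least 764 counts in every library. App, whose count can include reads from the human transgene, was at 2532, 2934, 2980 and 2958 CPM (counts relative to the TMM-adjusted total of each library) in the Tg libraries, against 1623, 1486, 1452 and 1390 CPM in the NTg libraries, higher in all 4 Tg libraries (edgeR adjusted p = 0.00146). The 32 members together made up 0.590%, 0.709%, 0.675% and 0.694% of the counts of Tg replicates 1 to 4, against 0.705%, 0.667%, 0.716% and 0.609% in NTg replicates 1 to 4. Tg replicate 1 and NTg replicate 4 were the lowest libraries of their genotypes.

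Relative levels spanned a wide range. Per kilobase of annotated exon (union of all GENCODE M21 exons of the gene, which understates genes with many rare exons), the kinase subunit Camk2a stood first over all libraries, with a mean of 186 CPM per kilobase in Tg and 194 CPM per kilobase in NTg. The calmodulin-binding protein neurogranin, Nrgn, was next at 193 in Tg and 178 in NTg on the same scale, then spinophilin, Ppp1r9b, a spine protein that binds protein phosphatase 1 and actin, at 115 in Tg and 117 in NTg. Camk2b followed at 73.3 in Tg and 75.5 in NTg. The lowest members per kilobase were the PDZ proteins Pick1 (2.15 in Tg and 2.09 in NTg) and Grip1 (2.18 in Tg and 2.30 in NTg), which bind the tail of AMPA receptors. Pick1 shares 18.6% of its exon length with another gene on the same strand. How reads there were counted is not given in the sources, so its level may be understated. The order of Camk2a and Nrgn did not differ beyond their spread, with an SD over 4 libraries, in CPM per kilobase, of 24.8 in Tg and 20.5 in NTg for Camk2a, and of 42.9 in Tg and 28.3 in NTg for Nrgn.

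None of the 32 members passed the test between Tg and NTg. The quasi-likelihood test of edgeR with Benjamini-Hochberg adjustment over all genes called 0 of 32 members, against 3 of 21588 genes (0.0139%), and DESeq2 called 0 of 32, against 1.63% of all genes. At an unadjusted p under 0.05, 0 members were higher in Tg (4.68% of all genes) and 1 was lower, Lrrtm1 (2.68% of all genes). That count of members was 0 without Tg replicate 4, without NTg replicate 1 or without NTg replicate 3, and 2 without Tg replicate 3. The share of all genes in these smaller fits is not given here. The log2 fold changes, Tg over NTg, ran from -0.22 to 0.12, with a median of -0.03 for the members and -0.0024 for all genes tested. Of the members, 8 were above 0 and 24 below, in values that share the same libraries and so do not count as separate observations. The 95% confidence intervals, taken one member at a time, lay within 1.25-fold in either direction for 23 members and within 1.5-fold for all 32; the widest reached down to 0.687-fold, for Homer1, and up to 1.48-fold, for Homer3. In bulk tissue, fewer cells of a type and less RNA per cell cannot be told apart.

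**Figure D1:**
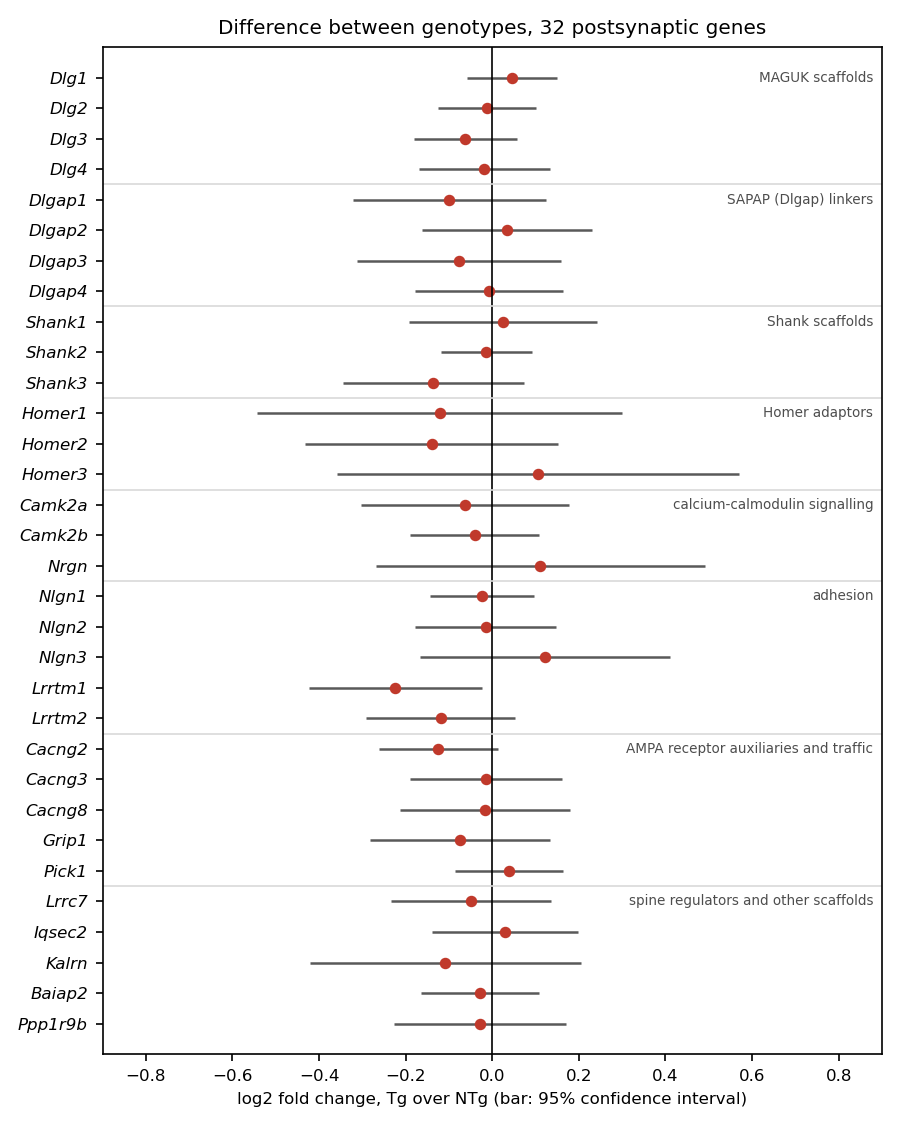
Log2 fold change of each member, Tg over NTg (points), with its 95% confidence interval from edgeR (bars), grouped by role, n = 4 libraries per genotype. Every interval but that of Lrrtm1 includes 0, and Homer3, Homer1 and Nrgn have the widest intervals.

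Among the Dlg scaffolds, Dlg4, which encodes PSD-95, was the most abundant by reads. It had 380.3, 423, 403 and 411 CPM in Tg, against 415, 423, 440.1 and 359.6 CPM in NTg (log2 fold change -0.02, SE 0.07, edgeR adjusted p = 0.987). The genotypes overlapped throughout, and both its lowest and its highest library were NTg. Dlg1, which encodes SAP97, had 179, 179, 196 and 184 CPM in Tg, against 181, 176, 174 and 186 CPM in NTg (log2 fold change 0.05, SE 0.05). Dlg3, which encodes SAP102 and is known for its role in NMDA receptor traffic, had 128, 144, 146 and 139 CPM in Tg, against 142, 151, 149.6 and 139 CPM in NTg (log2 fold change -0.06, SE 0.05). Dlg2, which encodes PSD-93, averaged 322 ± 19.1 CPM in Tg and 325 ± 4.22 CPM in NTg (SD, n = 4). The 4 scaffold genes were thus the steadiest group, with a coefficient of variation over the 8 libraries of 3.88% for Dlg1, 3.99% for Dlg2, 5.07% for Dlg3 and 6.35% for Dlg4, against a median of 8.98% over the 32 members.

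The linkers of the next layer varied more. Dlgap1, the most abundant of its family by reads, had 247, 358, 321 and 319 CPM in Tg, against 333, 311, 335 and 356 CPM in NTg (log2 fold change -0.10, SE 0.10, edgeR adjusted p = 0.921). Tg replicate 1 was low and the other Tg libraries lay within or just above the NTg range. Dlgap2 averaged 34.7 ± 3.72 CPM in Tg and 33.9 ± 2.86 CPM in NTg, Dlgap3 averaged 159 ± 17.7 CPM in Tg and 168 ± 21.7 CPM in NTg, and Dlgap4 averaged 163 ± 11.1 CPM in Tg and 164 ± 15.5 CPM in NTg (SD, n = 4 each).

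The Shank proteins are the master scaffolds that join the Dlgap and Homer layers. Shank1 had 215, 268, 258 and 283 CPM in Tg, against 269, 234, 279 and 225 CPM in NTg (log2 fold change 0.03, SE 0.10). Shank3, whose loss of function in people is linked to autism and Phelan-McDermid syndrome, had 147, 161, 157 and 178 CPM in Tg, against 179, 161, 208 and 158 CPM in NTg (log2 fold change -0.14, SE 0.09, edgeR adjusted p = 0.858). The Shank3 values overlapped, and NTg replicate 3 was the highest library by a wide margin. Shank2 averaged 118 ± 5.98 CPM in Tg and 119 ± 2.45 CPM in NTg (SD, n = 4).

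The Homer adaptors were the least steady group. Homer1 had 113, 157, 185 and 94.96 CPM in Tg, against 174, 138, 152 and 135 CPM in NTg (log2 fold change -0.12, SE 0.19, edgeR adjusted p = 0.960). The highest and the lowest Homer1 library were both Tg, and the spread within Tg was wider than the difference between the genotype means. Counts per gene cannot separate the short, activity-induced Homer1a from the long forms. Homer2 had 35.9, 54.9, 51.6 and 43.6 CPM in Tg, against 44.8, 49.7, 59.4 and 51.0 CPM in NTg (log2 fold change -0.14, SE 0.13). Homer3, a form abundant in cerebellar Purkinje cells, had 42.6, 35.2, 31.3 and 44.99 CPM in Tg, against 26.9, 26.8, 38.1 and 51.4 CPM in NTg (log2 fold change 0.11, SE 0.21). Homer3 had the largest coefficient of variation of all members, 23.8%. Its exons share 25.4% of their length with Ddx49 on the opposite strand, and the libraries do not mark strand, so reads there could be counted for either gene. Ddx49 was at 12.7 to 14.3 CPM in Tg and 12.8 to 13.4 CPM in NTg, and its part in the Homer3 count was not tested.

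Genes of calcium and calmodulin signalling were among the most abundant members. Camk2a, the alpha subunit of CaMKII in forebrain excitatory neurons, had 1128, 1567, 1438 and 1414 CPM in Tg, against 1545, 1405, 1593 and 1253 CPM in NTg (log2 fold change -0.06, SE 0.11, edgeR adjusted p = 0.966). Nrgn, a small protein that holds calmodulin in spines, had 187, 323, 303 and 306 CPM in Tg, against 308, 246, 271 and 210.4 CPM in NTg (log2 fold change 0.11, SE 0.17, edgeR adjusted p = 0.960). In both genes Tg replicate 1 was the lowest of all libraries and NTg replicate 4 the lowest of its genotype. Without Tg replicate 1, the log2 fold change of Nrgn was 0.26 (SE 0.11, edgeR adjusted p = 0.486). Camk2b, whose product also bundles actin, averaged 669 ± 12.1 CPM in Tg and 689 ± 62.3 CPM in NTg (SD, n = 4).

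**Figure D2:**
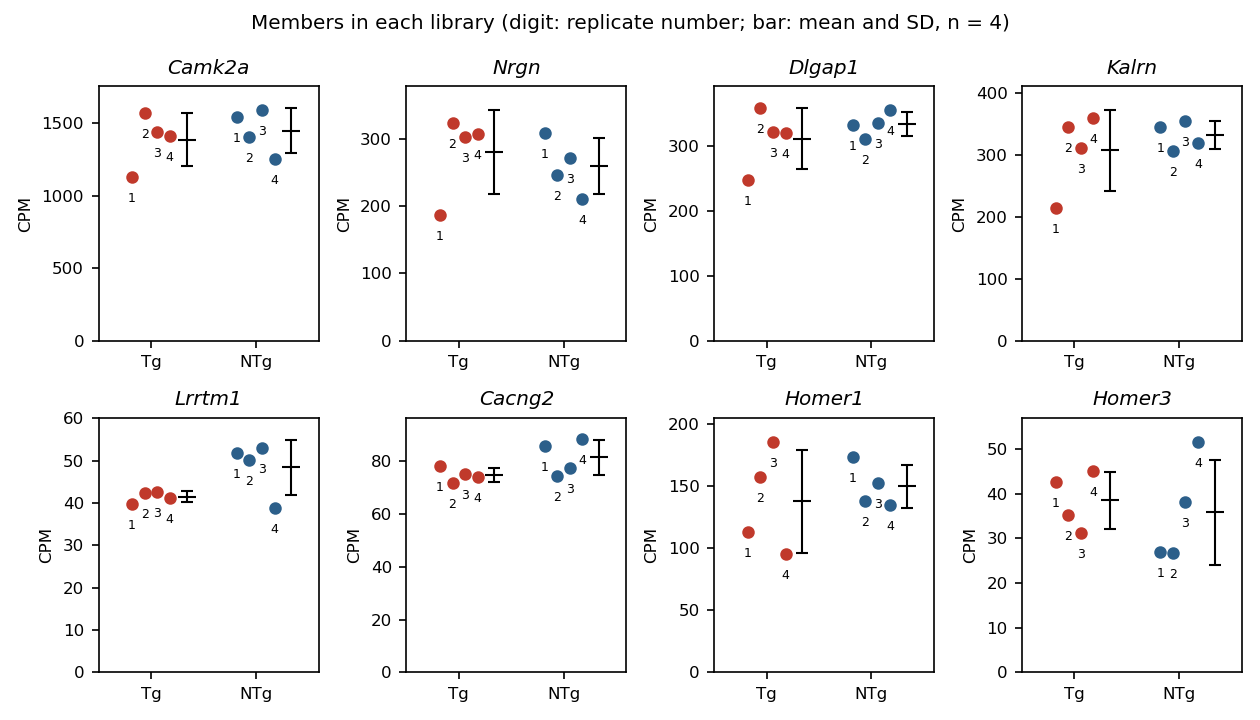
CPM of 8 members in each library (points, with the replicate number below), Tg left and NTg right, with the mean and SD of 4 libraries as bars. Tg replicate 1 is the lowest library for Camk2a, Nrgn, Dlgap1 and Kalrn, the Lrrtm1 values of Tg lie close together at 39.8 to 42.6 CPM, and Homer3 is highest in NTg replicate 4 at 51.4 CPM.

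Among the adhesion molecules, Lrrtm1 came nearest to a difference. Lrrtm1, a leucine-rich repeat protein that binds neurexins at excitatory synapses, had 39.8, 42.4, 42.6 and 41.2 CPM in Tg, against 51.7, 50.2, 53.0 and 38.9 CPM in NTg. All 4 Tg libraries lay below NTg replicates 1 to 3, and NTg replicate 4 lay below all Tg libraries. The log2 fold change was -0.22 (SE 0.09, 95% confidence interval -0.42 to -0.02, edgeR unadjusted p = 0.0316), which did not pass over all genes (edgeR adjusted p = 0.589, DESeq2 adjusted p = 0.401). Without NTg replicate 4 it was -0.32 (edgeR adjusted p = 0.172). Without both NTg replicate 4 and Tg replicate 1, a choice made after seeing the data, it was -0.30 (SE 0.05, edgeR adjusted p = 0.0309), the only member called in that fit, where 1.23% of all genes were called. At an unadjusted p under 0.05, that fit placed 1 member lower (5.16% of all genes) and 0 higher (6.51%). Its paralog Lrrtm2 had 79.5, 78.9, 95.9 and 83.8 CPM in Tg, against 101, 84.0, 89.6 and 92.4 CPM in NTg (log2 fold change -0.12, SE 0.08, edgeR adjusted p = 0.840). Of the neuroligins, Nlgn2, the form of inhibitory synapses, had 189, 199, 173 and 198 CPM in Tg, against 204, 194, 202 and 167 CPM in NTg (log2 fold change -0.02, SE 0.07). Nlgn1, the form of excitatory synapses, averaged 63.1 ± 2.06 CPM in Tg and 64.2 ± 4.12 CPM in NTg. Nlgn3, found at both kinds of synapse, averaged 31.6 ± 5.40 CPM in Tg and 29.1 ± 4.08 CPM in NTg (SD, n = 4 each). Nlgn3 shares 41.2% of its exon length with the same-strand transcript Gm21986, which had 12 to 14 counts per Tg library and 10 to 15 counts per NTg library. How reads in the shared exons were counted is not given in the sources, so the level of Nlgn3 may be understated.

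Auxiliary subunits of AMPA receptors, the TARPs, set how these receptors reach the synapse and gate. Cacng2, which encodes stargazin, had 77.8, 71.8, 74.9 and 73.9 CPM in Tg, against 85.5, 74.2, 77.2 and 88.4 CPM in NTg (log2 fold change -0.12, SE 0.06, 95% confidence interval -0.26 to 0.01, edgeR unadjusted p = 0.0701, adjusted p = 0.723). The ranges overlapped between 74.2 and 77.8 CPM. Cacng3 averaged 44.9 ± 4.74 CPM in Tg and 45.4 ± 2.73 CPM in NTg, and Cacng8, the TARP best known from hippocampus, averaged 25.6 ± 2.12 CPM in Tg and 25.9 ± 2.80 CPM in NTg. Grip1 averaged 17.6 ± 1.48 CPM in Tg and 18.5 ± 2.18 CPM in NTg, and Pick1 averaged 14.1 ± 0.426 CPM in Tg and 13.7 ± 0.425 CPM in NTg (SD, n = 4 each). Pick1 was the steadiest of the 32, with a coefficient of variation of 3.17%. Its exons share 18.6% of their length with Gm49486 on the same strand, which had 7 to 12 counts per Tg library and 6 to 11 counts per NTg library.

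The spine regulators showed the same overlap. Ppp1r9b had 518, 582, 576 and 664 CPM in Tg, against 573, 598, 676 and 538 CPM in NTg (log2 fold change -0.03, SE 0.09). Kalrn, a guanine nucleotide exchange factor for Rac that enlarges spines, averaged 307 ± 65.1 CPM in Tg and 331 ± 22.4 CPM in NTg, and 215 CPM in Tg replicate 1 set it apart from the remaining Tg libraries at 311 to 359.8 CPM. Baiap2, which encodes the membrane-bending protein IRSp53, averaged 173 ± 10.2 CPM in Tg and 176 ± 11.0 CPM in NTg. Iqsec2, an exchange factor for Arf6, averaged 112 ± 11.7 CPM in Tg and 109.7 ± 5.66 CPM in NTg, and Lrrc7, which encodes the scaffold densin-180, averaged 41.8 ± 4.82 CPM in Tg and 43.3 ± 2.69 CPM in NTg (SD, n = 4 each).

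No member separated the genotypes: in 0 of 32 did all Tg libraries lie above all NTg libraries (2.62% of all genes did), and in 0 of 32 did all lie below (1.58% of all genes did). Leaving out NTg replicate 4, with or without Tg replicate 1, put Camk2b and Lrrtm1 wholly lower in Tg, and leaving out Tg replicate 3 did so for Dlg2 and Lrrtm2. The share of all genes that separate in these smaller sets is not given here. Some gaps were narrow, with nearest values in Tg and NTg of 685.0 and 689.5 CPM for Camk2b. These were 317.0 and 319.3 CPM for Dlg2, and 83.84 and 84.01 CPM for Lrrtm2. Tg replicate 1 was the lowest of the 8 libraries for 14 members and NTg replicate 4 for 10, which makes 24 of 32 (75.0%). The same libraries were lowest for 26.1% of all genes tested. They were singled out because they were low for these members, so the 75.0% follows in part from that choice. The members share the same libraries, so they are not separate observations. NTg replicate 3 was the highest library for 10 members and Tg replicate 1 for 0. The mean log2 CPM of the 32 members, relative to the NTg mean, was -0.18, 0.04, -0.0016 and -0.0055 in Tg replicates 1 to 4, against 0.03, -0.02, 0.08 and -0.09 in NTg replicates 1 to 4. The mean was -0.04 ± 0.10 in Tg and 0 ± 0.07 in NTg (SD, n = 4), a difference of -0.04 that was smaller than the spread within either genotype. Taking the median over members in place of the mean gave a difference of -0.10, larger than the NTg SD of the mean level. Without Tg replicate 1 the difference was 0.01, and without Tg replicate 1 and NTg replicate 4 it was -0.02.

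**Figure D3:**
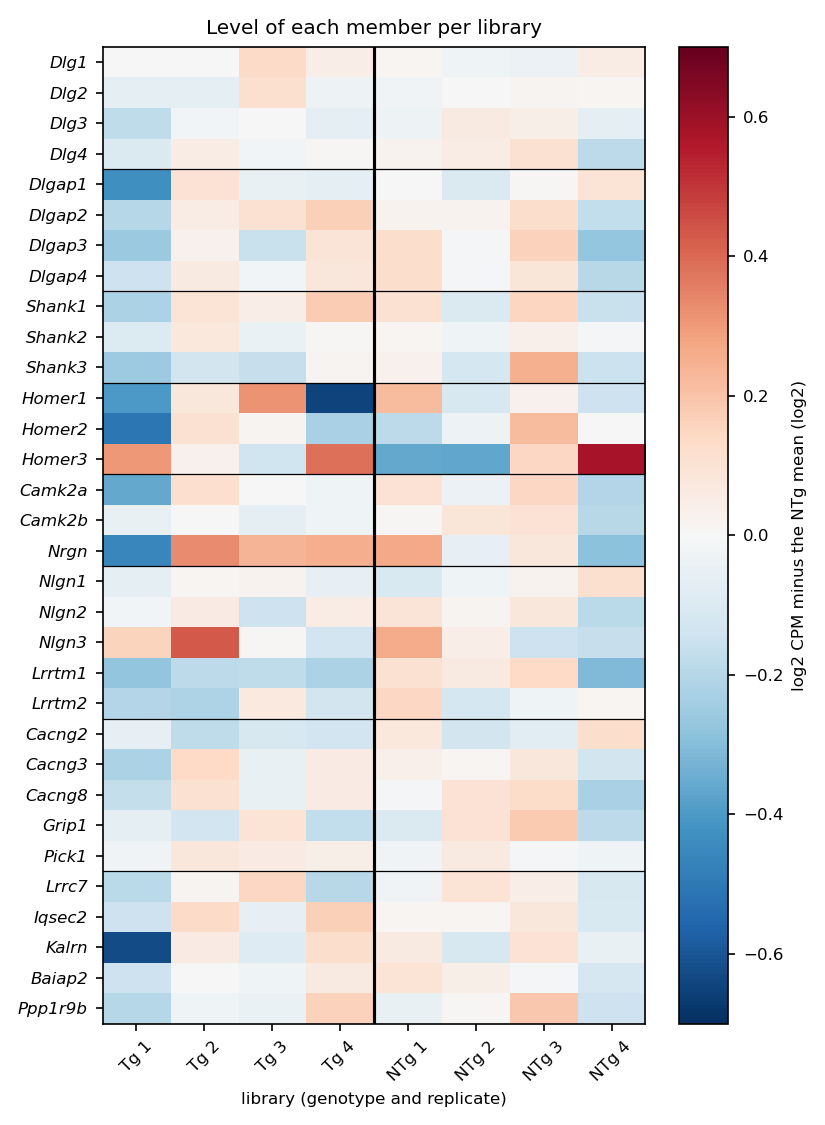
Level of each member in each library as log2 CPM minus the mean of the NTg libraries (colour, log2 scale), Tg libraries left and NTg libraries right, with lines between role groups. The column of Tg replicate 1 is mostly blue, as is that of NTg replicate 4, where Homer3 stands out in red.

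Markers of brain regions, blood, glia and neuronal activity also varied in Tg replicate 1 and NTg replicate 4, and not all lists went the same way in both. The tissue is described both as forebrain and as a hemibrain, and defining markers of cerebellar neurons were present in every library. Gabra6, the receptor subunit of cerebellar granule cells, had 178, 130, 128 and 130 CPM in Tg, against 85.3, 63.9, 86.0 and 180.2 CPM in NTg. The Purkinje cell gene Pcp2 was at 17.8, 15.3, 15.1 and 17.7 CPM in Tg, against 11.1, 9.92, 11.9 and 25.7 CPM in NTg. The list of 10 cerebellar markers also holds Calb2, Pvalb and Zic2, which are not confined to cerebellum. Calb2 and Pvalb were at 120 and 123 CPM in NTg replicate 2. In NTg, all markers of the list but Calb2 were highest in replicate 4. The 10 cerebellar markers summed to 757 to 1006 CPM in Tg, highest in replicate 1, and to 554 to 1112 CPM in NTg, highest in replicate 4. None of them was at 0. The summed cerebellar markers were thus highest, within each genotype, in the library that was lowest for the largest number of members. Homer3, the Purkinje cell form, was highest in NTg replicate 4 at 51.4 CPM and, within Tg, in replicates 4 and 1 at 44.99 and 42.6 CPM. The 10 markers of cortical and hippocampal glutamatergic neurons summed to 1156 CPM in Tg replicate 1, 1470 to 1620 CPM in Tg replicates 2 to 4 and 1400 to 1582 CPM in NTg. NTg replicate 4, at 1469.6 CPM, was within the range of the NTg libraries for this list. The 6 red blood cell markers summed to 3004 CPM in Tg replicate 1, with replicates 2 to 4 of Tg at 448 to 732 CPM, against 3274 CPM in NTg replicate 4 and 1283 to 1877 CPM in NTg replicates 1 to 3. The 13 mitochondrially encoded genes were also highest in these libraries, at 66300 CPM in Tg replicate 1, with the rest of Tg at 59954 to 63452 CPM, against 73781 CPM in NTg replicate 4 and 57332 to 69263 CPM in the remaining NTg libraries. General neuronal markers varied less, with mean log2 levels of -0.08 to 0.01 in Tg and -0.03 to 0.03 in NTg relative to the NTg mean. Striatal markers stood at 0.21 in Tg replicate 1 and at -0.21 in NTg replicate 4, and hypothalamic markers at 0.49 and -1.35 in these libraries. Immediate early genes, which neurons switch on with activity, stood at -0.59 in Tg replicate 1 and at -0.06 to 0.28 in the other Tg libraries, against -0.24 to 0.24 in NTg. NTg replicate 4 was at -0.20 for this list, and NTg replicate 2 was the lowest of its genotype at -0.24. Egr1 was at 67.1, 143, 113 and 99.1 CPM in Tg, against 160, 99.4, 136 and 94.8 CPM in NTg. Glial markers also set Tg replicate 1 apart within its genotype. Microglial markers stood at 0.32 in Tg replicate 1 and at 1.04 to 1.10 in the other Tg libraries, against -0.17 to 0.27 in NTg. Astrocyte markers stood at 0.09 in Tg replicate 1 and at 0.39 to 0.51 in the other Tg libraries, against -0.13 to 0.09 in NTg. The part of these markers in the levels of the members was not tested.

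**Figure D4:**
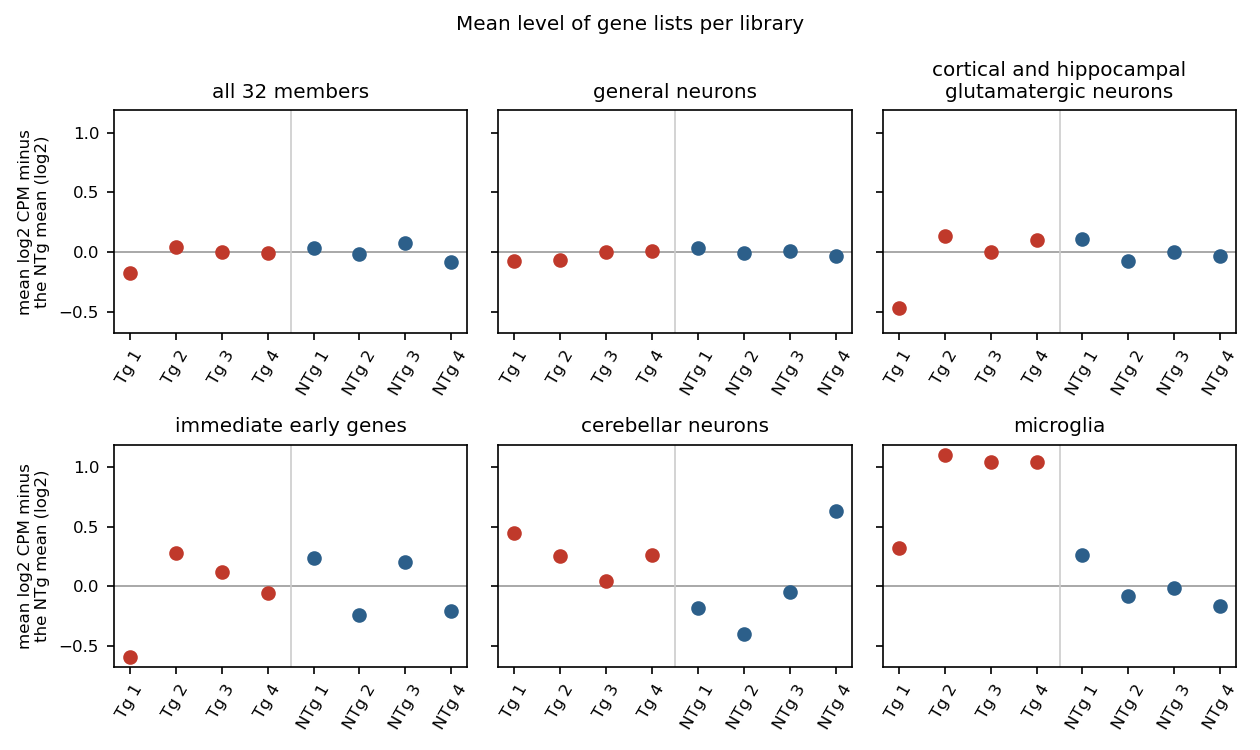
Mean log2 CPM of 6 gene lists in each library minus the mean of the NTg libraries, Tg libraries in red at left and NTg libraries in blue at right. The 32 members and the general neuronal markers stay near 0, the glutamatergic and immediate early lists are lowest in Tg replicate 1 at -0.47 and -0.59, the cerebellar list peaks in NTg replicate 4 at 0.63, and the microglial list is at 0.32 to 1.10 in Tg and at -0.17 to 0.27 in NTg.

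The makeup of the families mostly overlapped between the genotypes. The share of a family's CPM that came from each paralog was computed for 24 members in 8 families, as read shares without length correction, and the genotypes overlapped in 23 of the 24. Dlg4 took 38.5 ± 1.42% of Dlg reads in Tg and 38.6 ± 2.10% in NTg, Camk2a took 67.2 ± 2.92% of Camk2a and Camk2b reads in Tg and 67.8 ± 1.40% in NTg, and Nlgn2 took 66.7 ± 1.94% of neuroligin reads in Tg and 67.2 ± 2.33% in NTg (SD, n = 4). Shank3, singled out after its values were seen, took 31.0%, 29.0%, 29.6% and 30.7% of Shank reads in Tg, against 31.5%, 31.5%, 34.2% and 31.6% in NTg. All 4 Tg libraries lay below all 4 NTg libraries, with a gap of less than 1 percentage point between the nearest (31.04% and 31.47%). No test was run on these shares, and no background from other gene families is given. The CPM values of Shank3 itself overlapped. In the Homer family, Homer3 took 22.3%, 14.3%, 11.7% and 24.5% of reads in Tg, against 11.0%, 12.5%, 15.3% and 21.7% in NTg, with both genotypes spanning a wide range.

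Other genes of the postsynapse mostly had slightly lower values in Tg, 87 of 106 below 0 on the log2 fold change scale, where 10973 of all 21588 genes were. These genes share the same libraries, so they are not separate observations. Of 107 such genes, 106 were tested, and edgeR called 0 of them (0.0139% of all genes), while DESeq2 called 1 (1.63% of all genes). At an unadjusted p under 0.05, edgeR placed 8 lower in Tg (2.68% of all genes were) and 0 higher (4.68%), and the median log2 fold change was -0.05, against -0.0024 over all genes. Of the 35 other scaffold and actin genes 3 were lower, of 26 signalling genes 2, of 40 adhesion genes 2 and of 7 tested genes of the inhibitory postsynapse 2, with Slitrk3 in both of the last lists. The gene called by DESeq2 was Ppp1r9a, which encodes neurabin-1, the paralog of spinophilin. It had 248, 237, 246 and 245 CPM in Tg, against 264, 278, 275 and 268 CPM in NTg (log2 fold change -0.15, SE 0.04, edgeR adjusted p = 0.263, DESeq2 adjusted p = 0.00225), with all 4 Tg libraries below all 4 NTg libraries. Iqsec3, an Arf exchange factor of inhibitory synapses, averaged 159 ± 6.65 CPM in Tg and 184 ± 20.1 CPM in NTg (log2 fold change -0.22, SE 0.08, edgeR adjusted p = 0.476). Rasgrf1, a calcium-dependent activator of Ras, averaged 345 ± 19.4 CPM in Tg and 387 ± 26.4 CPM in NTg (log2 fold change -0.17, SE 0.06, edgeR adjusted p = 0.532). Magi2, a scaffold of the membrane-associated guanylate kinase type, averaged 81.7 ± 3.60 CPM in Tg and 90.5 ± 5.89 CPM in NTg (log2 fold change -0.15, SE 0.06, edgeR adjusted p = 0.555). Gphn, which encodes gephyrin, the scaffold of inhibitory synapses, averaged 75.5 ± 4.18 CPM in Tg and 82.4 ± 2.51 CPM in NTg (log2 fold change -0.13, SE 0.05, edgeR adjusted p = 0.569). Summed over the 106 genes, the level was 17322, 18380, 18355 and 18285 CPM in Tg, against 18799, 18650, 19258 and 18487 CPM in NTg. This separation of the summed level was seen after the values and not tested. In mean log2 CPM, relative to the NTg mean, the genotypes overlapped. That level was -0.094, -0.029, -0.032 and -0.064 in Tg, against -0.0077, 0.015, 0.054 and -0.061 in NTg. Of the single genes, Ppp1r9a and Akap5, the anchor of protein kinase A at the density (80.2 ± 0.968 CPM in Tg and 84.5 ± 3.71 CPM in NTg), had no overlap between the genotypes, where 1.58% of all genes lay below in this way. The count of 8 was 3 without NTg replicate 2 or without NTg replicate 3, 4 without NTg replicate 1, 5 without Tg replicate 1 or without Tg replicate 4, and 10 without Tg replicate 1 and NTg replicate 4. With 1 library left out, the share of all genes is not given here. Markers of other cells also differed between the genotypes in mean log2 level, by 0.88 for 12 microglial, 0.37 for 10 astrocyte and -0.30 for 10 endothelial genes. The median log2 fold change of the astrocyte genes was 0.14, with 8 above 0, up to 1.83 for Gfap, and 2 below. Choroid plexus markers differed by -0.76, red blood cell markers by -1.21, hypothalamic markers by -0.53 and thalamic markers by -0.34. Of these last lists, only choroid plexus did not overlap between the genotypes. The part of all these lists in the postsynaptic values was not tested.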

How the data were processed

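PolyA RNA from pulverised frozen forebrain was made into libraries with a TruSeq kit that keeps no strand information, per the labels' protocols. The authors deposited raw counts per Ensembl gene, with no normalization, and GEO lists STAR, DESeq2 and GRCm39 in the submitters' processing notes (versions, counter and annotation: not given in the sources used here). Symbols were matched by Ensembl identifier (52073 of 56748 identifiers, 99.6% of counts). Genes were kept by filterByExpr of edgeR (minimum count 10, minimum total 15), scaled with TMM and tested over all genes with the quasi-likelihood F test and Benjamini-Hochberg adjustment at 0.05 (R 4.3.3, edgeR 4.0.16, limma 3.58.1, DESeq2 1.42.0). Mean log2 CPM used a prior count of 2. The SE is the log2 fold change divided by the square root of F, and the 95% interval uses its t distribution. The fit was tested on simulated data. The members and all lists were chosen with earlier results of these data known, so lists are described by counts and medians, with no test. All 32 members are named. Values in every library are given for the 8 members with the smallest p and the most abundant of each role, and Nrgn, Homer3 and some shares were added after their values were seen. Other postsynaptic genes are named where p was smallest or, for Gphn, Slitrk3, Akap5 and Cbln1, after the values were seen. Same-numbered libraries did not deviate together in every pair (correlations from -0.03 to 0.16), so no pairing was assumed.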

Additional observations from a re-analysis of the deposited data

Results flagged for a closer look

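Among the 4 libraries of a genotype, 2 values were flagged as apart from the other 3, out of 82 sets of 4 examined. Chance flags about 1 set in 20, so these flags were fewer than chance alone would give. Nrgn was at 187 CPM in Tg replicate 1, with the other Tg libraries at 303 to 323 CPM. Pick1 was at 14.4 CPM in NTg replicate 2, with the other NTg libraries at 13.5 to 13.6 CPM.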

How the results depend on the processing

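The absence of called members held under DESeq2, limma-voom, RLE and upper quartile scaling, no filter on low counts, a filter of 1 CPM in 4 libraries, robust dispersion and each single library left out. It did not hold without Tg replicate 1 and NTg replicate 4 together, a setting chosen after seeing the data, which called 1 member (Lrrtm1) and put 1 other postsynaptic gene higher at an unadjusted p under 0.05 (Cbln1) and 2 members apart without overlap. DESeq2 called 1 other postsynaptic gene. For sets with libraries left out, the share of all genes without overlap is not given here. Neither is the share at an unadjusted p under 0.05 with 1 library left out. Leaving out 1 library at a time gave 0 to 2 members at an unadjusted p under 0.05 and 0 to 2 members without overlap. Among the other postsynaptic genes it gave 3 to 12 lower and 0 to 1 higher (1 without NTg replicate 4). It put the median log2 fold change of the members between -0.074 and 0.0087 and their mean log2 difference between -0.066 and 0.010. Of the member values under 17 alternatives, 503 kept direction and call, 1 became called and 40 changed sign, and no scaling, filter or tool changed a sign. With 1 library left out, log2 fold changes ranged from -0.055 to 0.0061 for Dlg2, -0.075 to 0.017 for Dlg4, -0.17 to -0.0035 for Dlgap1, -0.019 to 0.11 for Dlgap2, -0.067 to 0.036 for Dlgap4, -0.028 to 0.10 for Shank1, -0.045 to 0.012 for Shank2, -0.30 to 0.020 for Homer1, -0.0096 to 0.33 for Homer3, -0.13 to 0.024 for Camk2a, -0.058 to 0.016 for Nlgn1, -0.074 to 0.026 for Nlgn2, -0.070 to 0.048 for Cacng3, -0.086 to 0.031 for Cacng8, -0.020 to 0.083 for Iqsec2, -0.19 to 0.030 for Kalrn, -0.066 to 0.0077 for Baiap2 and -0.095 to 0.037 for Ppp1r9b. Without both libraries the sign also turned for Dlg2 (0.0076), Dlgap1 (0.029), Shank2 (0.0064), Nlgn1 (0.031), Cacng3 (0.0077) and Kalrn (0.012). The cause of these changes was not tested. With the replicate number as a block, 0 members were called, and same-numbered libraries did not correlate in every pair, so the numbers were not taken as pairs. The number of libraries limits what could be detected, and the intervals give the sizes that these data leave possible for each member.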

Other observations

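Values of the other marker lists, as mean log2 CPM relative to the NTg mean, are given here with the number of genes called at an adjusted p under 0.05. Astrocyte markers lay at 0.09 to 0.51 in Tg and at -0.13 to 0.09 in NTg, and DESeq2 called 3 of the 10. Choroid plexus markers lay at -1.06 to -0.44 in Tg and at -0.27 to 0.21 in NTg, with 7 of 10 called by DESeq2. Endothelial markers lay at -0.62 to -0.09 in Tg and at -0.19 to 0.14 in NTg, with 1 of 10 called. Of the microglial markers, DESeq2 called 8 of 12. With all 8 libraries, edgeR called 0 markers of these lists. The lists of striatal, thalamic, hypothalamic and GABAergic neurons, oligodendrocytes, red blood cells and mitochondrially encoded genes had 0 called by either tool, and their levels overlapped between the genotypes. Without Tg replicate 1 and NTg replicate 4, edgeR called 9 of 12 microglial, 5 of 6 red blood cell and 3 of 10 astrocyte markers. In that fit it also called 2 of 10 cerebellar, 1 of 10 choroid plexus and 1 of 10 GABAergic markers, and 1.23% of all genes. The setting was chosen after seeing the data. The libraries left out had the highest summed red blood cell and cerebellar markers of their genotypes, so these calls depend on that choice. Hypothalamic markers lay at -1.92 to 0.49 in Tg and at -1.35 to 0.87 in NTg, and red blood cell markers at -2.12 to 0.61 in Tg and at -0.75 to 0.92 in NTg. Striatal markers spread from -0.44 to 0.21 in Tg and from -0.22 to 0.28 in NTg.

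Without Tg replicate 1 and NTg replicate 4, 10 of the 106 other postsynaptic genes were lower at an unadjusted p under 0.05 (5.16% of all genes) and 1 was higher (6.51% of all genes), with 0 called by edgeR after adjustment. The higher one was Cbln1, a synaptic organiser secreted by cerebellar granule cells, named after its values were seen. Cbln1 had 144, 125, 115 and 135 CPM in Tg, against 92.2, 84.7, 108 and 158 CPM in NTg, highest in Tg replicate 1 and in NTg replicate 4, as Gabra6 was.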
